A study of Mus musculus with 6 samples.

Results

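The genes for GABA synthesis (Gad1, Gad2), vesicle loading (Slc32a1), uptake (Slc6a11, Slc6a13) and breakdown (Abat) and for both GABA-B receptor subunits (Gabbr1, Gabbr2) were compared between hippocampi of DBA/2 and C57BL/6 mice. These 8 genes were chosen by symbol among 51912 genes, each matched 1 row, and all 8 passed the filter on low counts that left 17517 genes. Hippocampus of 2 inbred strains was sequenced as bulk RNA, with 3 DBA/2 libraries and 3 C57BL/6 libraries. Strain is the only difference that the labels state. They give no treatment, age, sex or substrain and do not say plainly whether a library came from 1 animal, and p-values therefore reflect only how much these libraries vary, part of which may be technical.

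GABA is the main inhibitory transmitter of the hippocampus and is made from glutamate in interneurons by the decarboxylases of Gad1 and Gad2. The vesicular transporter of Slc32a1 loads it for release, membrane transporters return it to neurons and glia, and the transaminase of Abat degrades it. GABA-B receptors are G protein-coupled receptors that need both subunits: Gabbr1 binds the ligand, and Gabbr2 couples to the G protein.

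Total counts were 13839366 to 16912153 in DBA/2 libraries and 13867280 to 20185683 in C57BL/6 libraries. Xist, the transcript of the inactive X chromosome, had 2 to 12 counts in DBA/2 libraries, against 3214, 1 and 6995 counts in C57BL/6 replicates 1, 2 and 3. Libraries with Xist counts thus occurred in C57BL/6 only, and calls lost without C57BL/6 replicates 1 and 3 are given beside each result. Markers of thalamus and habenula, which lie beside the hippocampus, summed to 266 to 370 CPM (counts over the library total, with TMM scaling) in DBA/2 and 530 to 746 CPM in C57BL/6. Of these 16 markers 7 were called lower and none higher, against 13.7% lower and 9.09% higher over all genes tested. All 16 were called lower by limma-voom and 12 by edgeR without DBA/2 replicate 1, and none was at 0. Without the C57BL/6 libraries with Xist counts 6 were called, and Lef1, Tac2 and Nwd2 lost their calls.

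The transcripts of these genes had little sequence in common with other genes. Apart from genes that overlap them, no other gene shared 200 aligned bases at 95% identity with any of the 8 transcripts searched. The closest relatives are printed to show how short their identical stretches are. The coding sequences of Gad1 (GRCm38, chromosome 2, 70553072 to 70602014, plus strand) and Gad2 (chromosome 2, 22622205 to 22693874, plus strand) matched at 68.1% of aligned bases. Their longest identical run, in capitals with 20 flanking bases on each side, had 17 bases and began at coding base 1204 of Gad1 and 1180 of Gad2.
Gad1: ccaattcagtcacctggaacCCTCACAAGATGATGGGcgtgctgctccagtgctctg
Gad2: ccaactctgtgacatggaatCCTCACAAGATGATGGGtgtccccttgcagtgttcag
Slc6a11 (chromosome 6, 114131241 to 114249952, plus strand) and Slc6a13 (chromosome 6, 121300227 to 121337733, plus strand) matched at 72.8%. Their longest identical run had 19 bases, from coding base 411 of Slc6a11 and 372 of Slc6a13.
Slc6a11: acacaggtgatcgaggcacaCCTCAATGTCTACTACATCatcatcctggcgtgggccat
Slc6a13: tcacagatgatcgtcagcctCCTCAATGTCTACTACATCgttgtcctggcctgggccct
The coding sequences of Gabbr1 (chromosome 17, 37045966 to 37075067, plus strand) and Gabbr2 (chromosome 4, 46662305 to 46991873, minus strand) matched at 64.6% and shared at most 12 bases in a row. Slc32a1 (chromosome 2, 158610767 to 158615748, plus strand) shares 697 exonic bases with the antisense gene Gm14205, which had 2 counts in DBA/2 and 2 in C57BL/6, each over 3 libraries. Whether counting used strand is not given in the sources used here, so reads of these 2 genes cannot be told apart. Abat lies on chromosome 16 from 8513429 to 8621568, plus strand.

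The promoters are shown for the called genes that the RefSeq table (GRCm38.p6) holds, because these genes moved in the same direction. Of the 8 genes 7 had an entry, and Abat had none. Each window runs 5′ to 3′ from 250 bases before to 50 bases after the start of the transcript, and capitals mark matches to the GC box GGGCGG on either strand. Slc6a11 (chr6:114130991-114131290, plus strand) held 4 matches, Gabbr1 (chr17:37045716-37046015, plus strand) held 3, and Slc32a1 (chr2:158610508-158610807, plus strand) held 0.
Slc6a11: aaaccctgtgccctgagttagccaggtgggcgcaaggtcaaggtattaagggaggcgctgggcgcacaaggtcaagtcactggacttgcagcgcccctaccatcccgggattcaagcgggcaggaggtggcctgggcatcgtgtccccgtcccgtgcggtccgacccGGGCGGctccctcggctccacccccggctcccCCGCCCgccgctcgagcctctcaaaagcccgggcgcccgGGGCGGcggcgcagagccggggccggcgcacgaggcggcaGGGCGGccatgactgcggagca
Gabbr1: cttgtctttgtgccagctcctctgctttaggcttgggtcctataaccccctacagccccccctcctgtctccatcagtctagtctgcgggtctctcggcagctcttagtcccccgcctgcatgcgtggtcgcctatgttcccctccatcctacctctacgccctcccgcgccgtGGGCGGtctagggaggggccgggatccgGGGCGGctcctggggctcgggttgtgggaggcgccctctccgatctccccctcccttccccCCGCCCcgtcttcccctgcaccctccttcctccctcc
Slc32a1: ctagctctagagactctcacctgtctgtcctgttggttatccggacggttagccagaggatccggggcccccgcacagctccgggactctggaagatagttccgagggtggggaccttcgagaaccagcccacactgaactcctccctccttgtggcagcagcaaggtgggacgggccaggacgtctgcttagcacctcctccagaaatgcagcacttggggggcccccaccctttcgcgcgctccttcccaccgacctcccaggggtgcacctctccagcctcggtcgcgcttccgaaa
Of 27025 promoters of the same length, one per gene, 35.9% held this motif. The motifs TATAAA (14.2% of promoters), CCAAT (37.9%), TGACGTCA (1.88%), TAATTA (5.31%) and CACGTG (7.24%) were searched in the same way, and none was in the 3 windows printed. The uncalled Gabbr2 promoter also held 2 GC boxes, and G and C made up 72.3% of the Slc6a11 window, 67.3% of the Gabbr1 window and 63.3% of the Slc32a1 window, against a median of 52.7%. A match describes these letters only.

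Of the 8 genes, 4 were lower in DBA/2 and none was higher. Slc6a11, the astrocytic GABA transporter GAT3, fell most, followed by Slc32a1, Gabbr1 and Abat, whereas Gad1, Gad2, Slc6a13 and Gabbr2 did not pass the test. DESeq2 and limma-voom also called 4 lower and none higher, and no gene was higher in edgeR at an unadjusted p under 0.05. Calls rest on edgeR's quasi-likelihood test at a threshold of 0.05, with p adjusted over all 17517 genes by the Benjamini-Hochberg (BH) method. In that comparison 22.8% of all genes were called, 9.09% higher and 13.7% lower. DBA/2 and C57BL/6 libraries had separate CPM ranges for 5 of the 8 genes, against 36.8% of all genes. The median log2 fold change (DBA/2 over C57BL/6) was -0.17 over the 8 genes and 0.0027 over all genes. With C57BL/6 replicates 1 and 3 left out, so that 1 library of that strain remained, Slc6a11 and Gabbr1 were called, and 11% of all genes were.

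**Figure D1:**
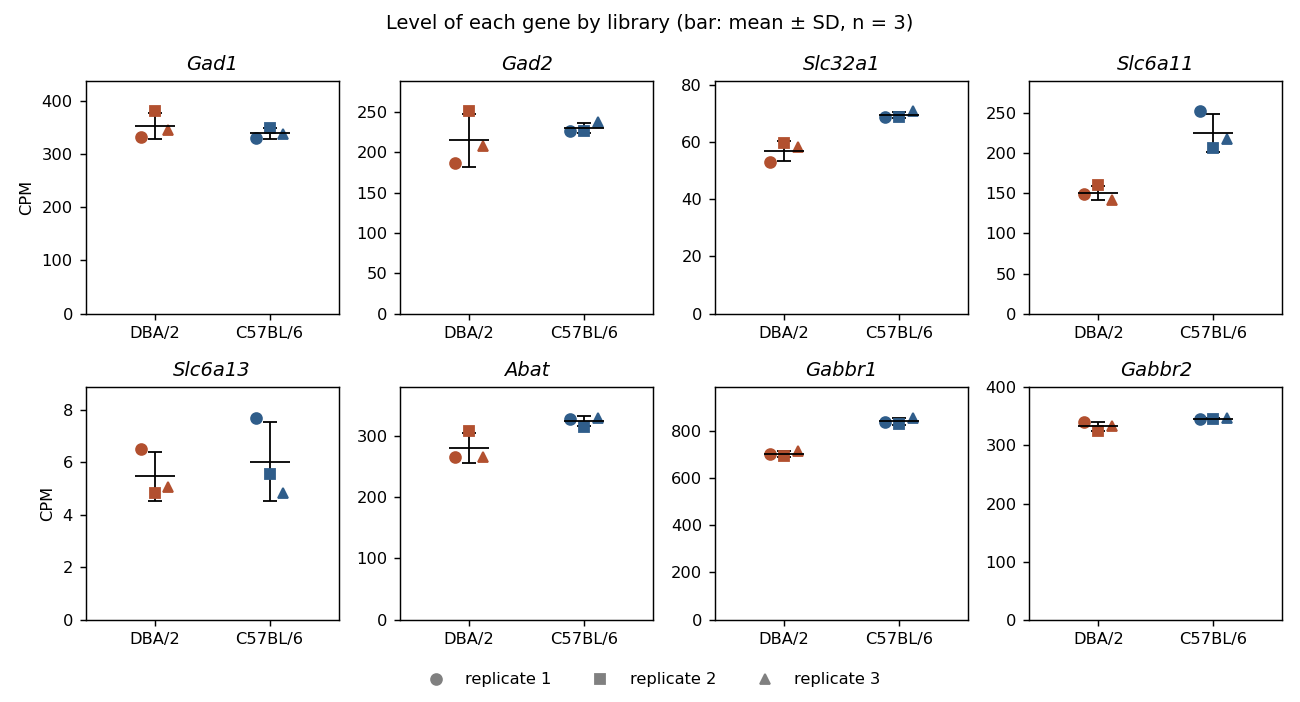
CPM of each of the 8 genes (vertical axis, from 0) in the 3 DBA/2 libraries (left in each panel) and the 3 C57BL/6 libraries (right), with the replicate number as symbol and the mean ± SD as a bar. The strains stand apart for Slc32a1, Slc6a11 and Gabbr1, closely for Abat and Gabbr2, and overlap for Gad1, Gad2 and Slc6a13.

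Gad1 encodes GAD67, the form of the decarboxylase spread through the cell body. It had 332, 380 and 344 CPM in DBA/2 replicates 1 to 3, against 329, 349 and 338 CPM in C57BL/6 replicates 1 to 3. The strains overlapped, and DBA/2 replicate 2 was the highest of the 6 libraries. The log2 fold change was 0.06 ± 0.05 (SE; BH-adjusted p = 0.473 in edgeR).

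Gad2 encodes GAD65, the form tied to synaptic terminals. It had 186, 250 and 208 CPM in DBA/2 replicates 1 to 3, against 227, 226 and 237 CPM in C57BL/6 replicates 1 to 3. Of the DBA/2 libraries 2 lay below every C57BL/6 library and 1 lay above all of them. The spread was 15.2% of the mean in DBA/2 and 2.85% in C57BL/6. The log2 fold change was -0.10 ± 0.11 (SE; BH-adjusted p = 0.595 in edgeR). DBA/2 replicate 2 decided this value: without it the log2 fold change was -0.22 (BH-adjusted p = 0.0036 in edgeR), and without DBA/2 replicate 1 it was 0.00061. DBA/2 replicate 2 also had the highest sum of the 11 striatum and pallidum markers, areas rich in GABA neurons, at 295 CPM, against 231 and 232 CPM in the other DBA/2 libraries and 216 to 236 CPM in C57BL/6. None of these markers was at 0, and their part in the result was not tested.

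Slc32a1 encodes VGAT, which fills synaptic vesicles with GABA and glycine. It had 53.0, 59.7 and 58.1 CPM in DBA/2 replicates 1 to 3, against 68.7, 68.8 and 70.7 CPM in C57BL/6 replicates 1 to 3. Every DBA/2 library lay below every C57BL/6 library. Slc32a1 fell to 56.9 ± 3.47 CPM in DBA/2, against 69.4 ± 1.10 CPM in C57BL/6 (SD, n = 3 each), a log2 fold change of -0.29 ± 0.06 (SE; BH-adjusted p = 0.000853 in edgeR). Without the C57BL/6 libraries with Xist counts it was -0.27 with an adjusted p of 0.0661 in the same edgeR test. In bulk tissue fewer cells of a type and less RNA per cell cannot be told apart.

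The fall of Slc32a1 stood beside interneuron genes that moved both ways. Of 23 interneuron markers 4 were higher and 3 lower in DBA/2, against 9.09% higher and 13.7% lower of all genes. Their summed level was 1537 to 1643 CPM in DBA/2 and 1567 to 1627 CPM in C57BL/6. Vip, a peptide of interneuron-selective cells, rose to 19.0 ± 2.08 CPM in DBA/2, against 14.0 ± 0.387 CPM in C57BL/6 (SD, n = 3 each). Calb2, the calcium-binding protein calretinin, fell to 39.4 ± 1.60 CPM in DBA/2, against 64.9 ± 11.1 CPM in C57BL/6 (SD, n = 3 each). The peptide gene Cort and the vesicular glutamate transporter gene Slc17a8 also fell, with log2 fold changes of -1.68 and -0.87. Both were scarce. Cort had 0.835 ± 0.289 CPM in DBA/2, against 2.59 ± 0.708 CPM in C57BL/6. Slc17a8 had 3.585 ± 1.04 CPM in DBA/2, against 6.61 ± 0.514 CPM in C57BL/6 (SD, n = 3 each). Without the C57BL/6 libraries with Xist counts 1 marker was higher and 1 lower: Vip, Cort and Slc17a8 lost their calls, and the log2 fold change of Calb2 was -0.40, against -0.72 with all libraries. Without DBA/2 replicate 3 the counts were 2 higher and 5 lower, and without C57BL/6 replicate 1 they were 2 and 3. Of 17 interneuron transcription factors and related transcripts 2 were higher and none lower: the chromatin organiser Satb1 had a log2 fold change of 0.22, and the noncoding Dlx6os1 had 0.37. Dlx6os1 lost its call without DBA/2 replicate 2 or 3 or without C57BL/6 replicate 1 or 2, which left 1 of these 17 called. Satb1 lost its call without the C57BL/6 libraries with Xist counts.

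Slc6a11 encodes GAT3, which clears GABA into astrocytes and is abundant in thalamic astrocytes. It had 149, 160 and 142 CPM in DBA/2 replicates 1 to 3, against 252, 207 and 217 CPM in C57BL/6 replicates 1 to 3. The strains did not overlap, and C57BL/6 replicate 1 was the highest. Slc6a11 fell to 150.2 ± 9.16 CPM in DBA/2, against 226 ± 23.6 CPM in C57BL/6 (SD, n = 3 each), or 66.6% of the C57BL/6 mean. The log2 fold change was -0.59 ± 0.07 (SE; BH-adjusted p = 1.68e-05 in edgeR), and it was -0.50 without C57BL/6 replicate 1.

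Most called astrocyte markers on the list used here fell beside Slc6a11. Of 18 astrocyte markers 9 were lower and 1 higher in DBA/2 (6 lower and 0 higher without the C57BL/6 libraries with Xist counts, and 8 lower and 0 higher without DBA/2 replicate 1 or 2 or C57BL/6 replicate 1 or 3), none was at 0, and they summed to 2344 to 2464 CPM in DBA/2 and 2812 to 3066 CPM in C57BL/6. Over all genes and libraries, 9.09% were called higher and 13.7% lower. Ntsr2, a neurotensin receptor of astrocytes, fell to 88.6 ± 3.18 CPM in DBA/2, against 148 ± 3.76 CPM in C57BL/6 (SD, n = 3 each). Agt, the angiotensinogen gene, fell by 0.83 on the log2 scale, Gfap by 0.64 and the connexin gene Gjb6 by 0.45. Astrocytic genes outside this list went both ways. The glutamate transporter gene Slc1a2 rose to 3314 ± 281 CPM in DBA/2, above the sum of this list, against 2689 ± 50.1 CPM in C57BL/6. Glul, for glutamine synthetase, fell to 589 ± 17.8 CPM in DBA/2, against 1384 ± 46.0 CPM in C57BL/6 (SD, n = 3 each). The summed fall thus holds for the listed markers only. Slc6a11 was 6.04%, 6.56% and 6.06% of the summed astrocyte markers in DBA/2 replicates 1 to 3, against 8.22%, 7.29% and 7.73% in C57BL/6 replicates 1 to 3. Slc6a11 was thus lower in DBA/2 also relative to these markers, without overlap. This share was not among the planned ratios, and it depends on which markers are listed. C57BL/6 replicate 1, highest for Slc6a11, was also highest for the thalamus and habenula markers, at 746 CPM, and the part of those markers in the fall was not tested.

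**Figure D2:**
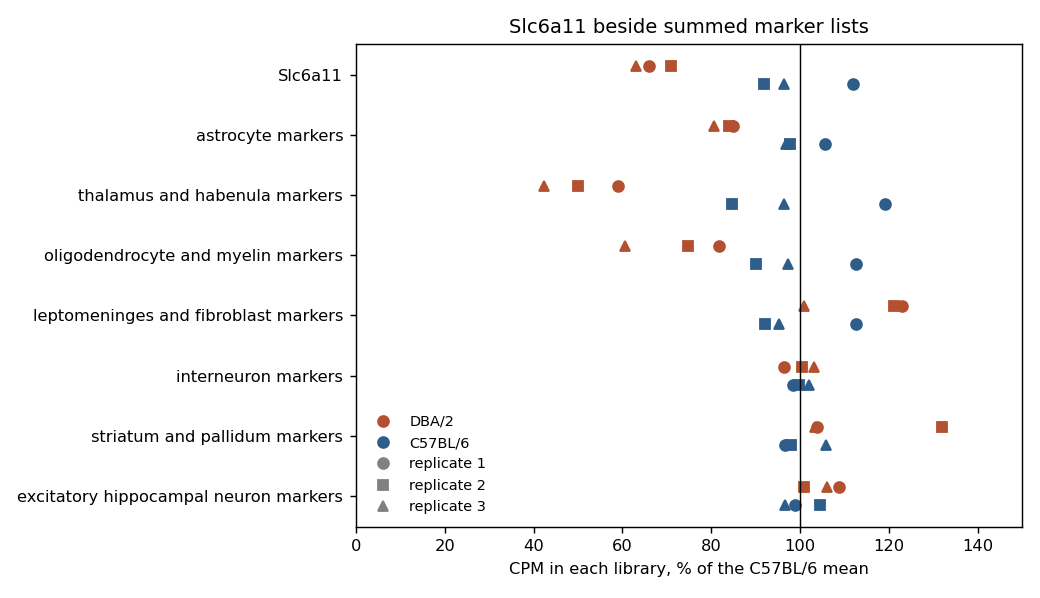
Level of Slc6a11 and summed level of the marker lists named at the left in every library, as a percentage of the C57BL/6 mean (horizontal axis). DBA/2 is above C57BL/6 in each row, with the replicate number as symbol. Interneuron transcription factors, vascular markers and choroid plexus markers are not drawn. Vascular markers lay at 111% to 129% in DBA/2 and 91.0% to 117% in C57BL/6. Choroid plexus markers lay at 117% to 258% in DBA/2 and 64.7% to 143% in C57BL/6. Slc6a11 lay at 62.9% to 71.0% in DBA/2 and 91.8% to 112% in C57BL/6, and the thalamus and habenula markers at 42.4% to 59.0% in DBA/2.

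Slc6a13 encodes GAT2, a transporter mainly of leptomeninges and vessels in the brain, and was scarce here. It had 6.52, 4.83 and 5.04 CPM in DBA/2 replicates 1 to 3, against 7.70, 5.54 and 4.84 CPM in C57BL/6 replicates 1 to 3, from 70 to 128 counts per library. The strains overlapped, and the gene did not pass the test (log2 fold change -0.13 ± 0.18, SE; BH-adjusted p = 0.668 in edgeR). Without C57BL/6 replicate 1 the log2 fold change was 0.088. The 17 leptomeninges and fibroblast markers summed to 240 to 293 CPM in DBA/2 and 219 to 268 CPM in C57BL/6. Over all genes, 9.09% were called higher and 13.7% lower. Of the 17 markers edgeR's test called only Pdgfra, which also marks oligodendrocyte precursors, with a log2 fold change of -0.22. Without DBA/2 replicate 1 this count was 2, without DBA/2 replicate 3 it was 3, and without the C57BL/6 libraries with Xist counts Pdgfra lost its call.

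Abat encodes GABA transaminase, the mitochondrial enzyme that breaks GABA down in neurons and astrocytes. It had 264, 308 and 266 CPM in DBA/2 replicates 1 to 3, against 327, 314 and 329 CPM in C57BL/6 replicates 1 to 3. The strains did not overlap, but DBA/2 replicate 2 came close to C57BL/6 replicate 2, and in FPKM, which carries no TMM factor, they crossed with 40.2 and 40.1. Abat fell to 279 ± 24.8 CPM in DBA/2, against 323 ± 8.33 CPM in C57BL/6 (SD, n = 3 each), a log2 fold change of -0.21 ± 0.05 (SE; BH-adjusted p = 0.00596 in edgeR). The adjusted p was 0.262 without the C57BL/6 libraries with Xist counts (edgeR) and 0.0737 with limma on log2(FPKM + 1).

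Gabbr1, the ligand-binding subunit, was the most abundant of the 8. It had 699, 691 and 715 CPM in DBA/2 replicates 1 to 3, against 835, 828 and 855 CPM in C57BL/6 replicates 1 to 3. The strains lay far apart compared with a spread of 1.70% of the mean in DBA/2 and 1.67% in C57BL/6. Gabbr1 fell to 702 ± 11.9 CPM in DBA/2, against 839 ± 14.0 CPM in C57BL/6 (SD, n = 3 each), a log2 fold change of -0.26 ± 0.04 (SE; BH-adjusted p = 7.09e-05 in edgeR). It was -0.24 without the C57BL/6 libraries with Xist counts (edgeR, adjusted p = 0.0374).

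Gabbr2, the partner subunit, had 340.5, 325 and 333 CPM in DBA/2 replicates 1 to 3, against 345, 346 and 348 CPM in C57BL/6 replicates 1 to 3. DBA/2 libraries lay just below C57BL/6 libraries in CPM but overlapped with them in FPKM. The log2 fold change of -0.06 ± 0.04 did not pass (SE; BH-adjusted p = 0.395 in edgeR).

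**Figure D3:**
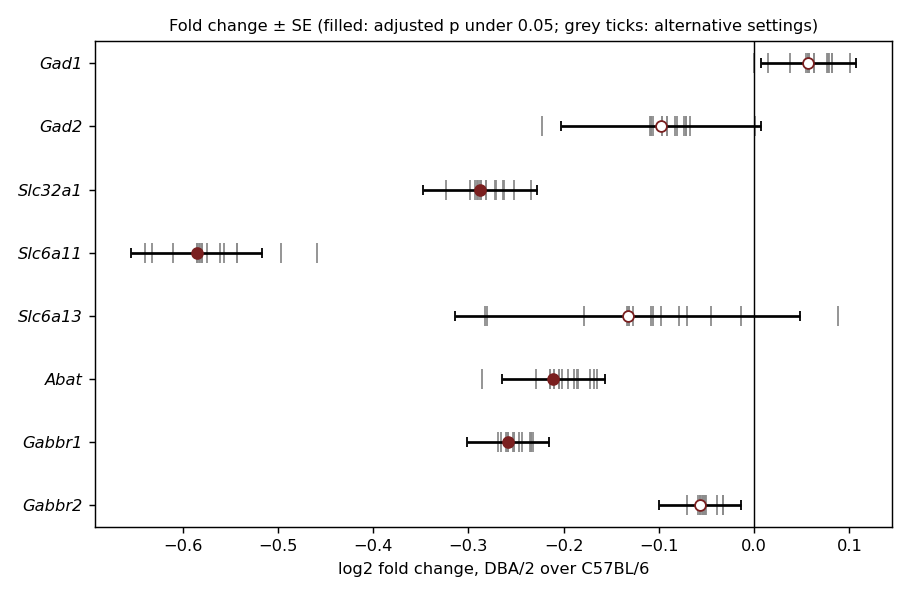
Log2 fold change of each gene, DBA/2 over C57BL/6 (horizontal axis), with its SE from edgeR's quasi-likelihood test. Filled points were called, and grey ticks are the values under the 16 alternative settings. Slc6a11 lay between -0.64 and -0.46 under all of these settings, while ticks of Gad2 and Slc6a13 fell on both sides of 0.

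Ratios of counts within a library need no scaling between libraries. With 3 libraries against 3, the exact two-sided permutation test cannot go below p = 0.10. Of 6 ratios compared, 4 reached that limit, with a Benjamini-Hochberg adjusted p of 0.15, so none passed. Gabbr2 to Gabbr1 was 0.487, 0.470 and 0.466 in DBA/2 replicates 1 to 3, against 0.413, 0.418 and 0.407 in C57BL/6 replicates 1 to 3, and was higher in 3 of 3 DBA/2 libraries (log2 difference 0.20, exact permutation p = 0.10). Slc32a1 to the sum of Gad1 and Gad2 averaged 0.101 ± 0.00541 in DBA/2 and 0.122 ± 0.00212 in C57BL/6 (SD, n = 3 each; log2 difference -0.28, exact permutation p = 0.10). Every DBA/2 library thus held fewer Slc32a1 counts for each Gad count than any C57BL/6 library. Abat to the same sum averaged 0.493 ± 0.0149 in DBA/2 and 0.569 ± 0.0213 in C57BL/6 (SD, n = 3 each; log2 difference -0.21, exact permutation p = 0.10). Slc6a11 to that sum, a ratio added after seeing the data, averaged 0.266 ± 0.0182 in DBA/2 and 0.397 ± 0.0497 in C57BL/6 (SD, n = 3 each; log2 difference -0.57, exact permutation p = 0.10), without overlap. Gad2 to Gad1 was 0.560 to 0.660 in DBA/2 and 0.646 to 0.704 in C57BL/6, and Slc6a13 to Slc6a11 was 0.0302 to 0.0438 in DBA/2 and 0.0223 to 0.0306 in C57BL/6 (exact permutation p = 0.20 for each). Both of these overlapped between the strains.

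**Figure D4:**
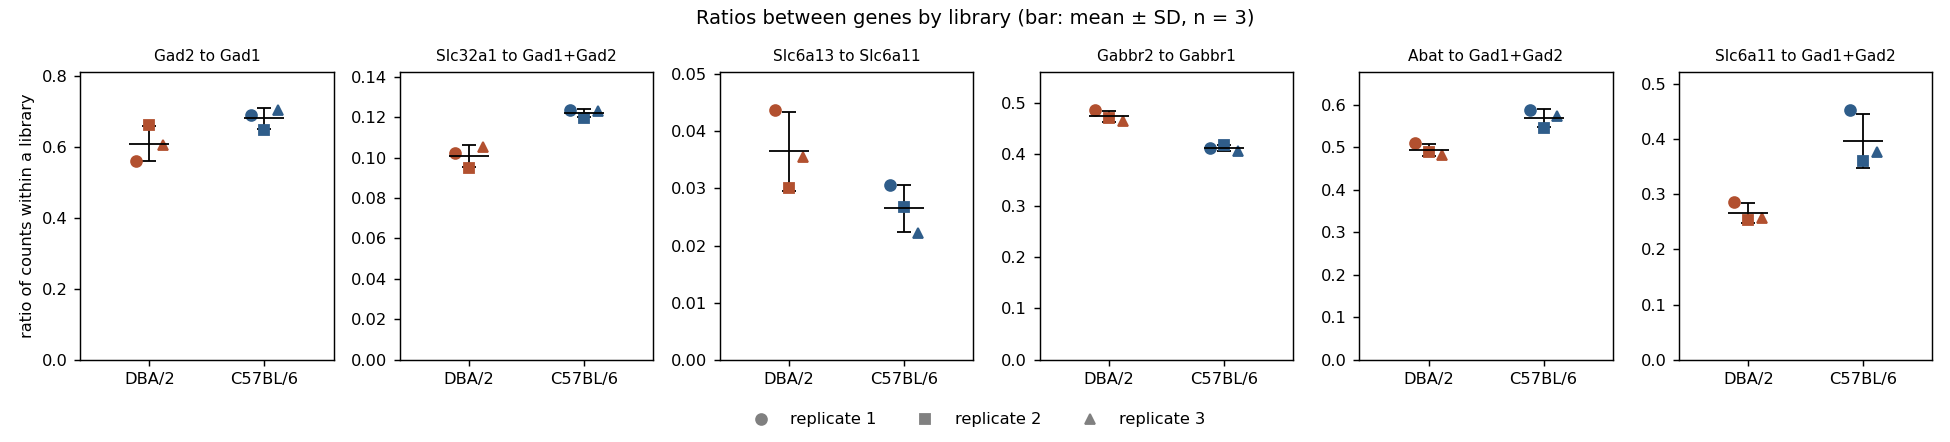
Ratio of the counts of the named genes within each library (vertical axis, from 0) in the 3 DBA/2 libraries (left) and the 3 C57BL/6 libraries (right), with the mean ± SD as a bar. Gabbr2 to Gabbr1 was higher and the ratios of Slc32a1, of Abat and of Slc6a11 to both Gad genes were lower in every DBA/2 library than in any C57BL/6 library, and the other ratios overlapped.

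Levels of different genes were compared per length, in FPKM (counts scaled to gene length and library total). In DBA/2 the order was Gabbr1 (91.0 ± 1.22 FPKM), Gabbr2 (50.1 ± 1.09), Gad1 (46.4 ± 3.36), Gad2 (36.8 ± 5.69), Abat (36.3 ± 3.34), Slc6a11 (30.0 ± 1.93), Slc32a1 (20.5 ± 1.26) and Slc6a13 (1.89 ± 0.319), each SD over 3 libraries. The libraries of Gabbr2 and Gad1 overlapped, as did those of Gad2 and Abat. In C57BL/6 the order was Gabbr1 (107 ± 2.06 FPKM), Gabbr2 (51.3 ± 0.388), Slc6a11 (44.2 ± 4.55), Gad1 (43.9 ± 1.36), Abat (41.3 ± 1.11), Gad2 (38.7 ± 1.21), Slc32a1 (24.6 ± 0.460) and Slc6a13 (2.05 ± 0.505). Slc6a11, at 28.2 to 32.0 FPKM in DBA/2 and 40.6 to 49.3 FPKM in C57BL/6, overlapped with Gad2 in DBA/2 and with Gad1 and Abat in C57BL/6, where Abat also overlapped with Gad2. Its place above Gad1 in C57BL/6 rests on C57BL/6 replicate 1, the library at 49.3 FPKM.

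Of 16 other genes of GABA metabolism and precursor supply, 2 were higher and 6 lower in DBA/2 (2 and 3 without the C57BL/6 libraries with Xist counts, where Maob was among those lost). Over all genes and libraries, 9.09% were called higher and 13.7% lower. Glul, the astrocytic glutamine synthetase that feeds glutamine to neurons, fell to 589 ± 17.8 CPM in DBA/2, against 1384 ± 46.0 CPM in C57BL/6 (SD, n = 3 each), with a log2 fold change of -1.23. Its level is uncertain because it shares 1126 bases at 96.8% identity with the pseudogene Glns-ps1, which averaged 3.68 CPM. The glutamine transporter gene Slc38a5 fell to 1.98 ± 0.673 CPM in DBA/2, against 4.34 ± 1.02 CPM in C57BL/6 (SD, n = 3 each). Aldh9a1 and Maob, enzymes of the route from putrescine to GABA, fell by 0.72 and 0.36 on the log2 scale. Slc1a2, the main astrocytic glutamate transporter, and the glutamine transporter gene Slc38a2 rose, each with a log2 fold change of 0.30.

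Of 20 partners and effectors of GABA-B receptors, 4 were higher and 4 lower in DBA/2, against 9.09% higher and 13.7% lower of all genes. Kcnj9, a G protein-gated potassium channel subunit that these receptors open, fell to 79.7 ± 4.12 CPM in DBA/2, against 115 ± 2.75 CPM in C57BL/6 (SD, n = 3 each). Rgs6 and Rgs7, which speed the shutdown of G protein signals, fell by 0.71 and 0.26 on the log2 scale, and Gnb5, their obligate partner, by 0.33. Kctd12, an auxiliary GABA-B subunit named here after its values were seen, rose to 114 ± 2.69 CPM in DBA/2, against 94.7 ± 4.09 CPM in C57BL/6 (SD, n = 3 each). Without C57BL/6 replicate 1 or replicate 2 the counts were 1 higher and 4 lower, and without DBA/2 replicate 2 they were 1 and 5. Without C57BL/6 replicate 3, or without both C57BL/6 libraries with Xist counts, they were 2 and 4.

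The genes closest to each called member in CPM pattern were taken from 11476 genes, by the root mean square difference of centred log2 CPM over 6 libraries. They were Plcb4 (0.0271) and Efcab12 (0.0302) for Slc6a11, and Wdr6 (0.0186) for Slc32a1. For Abat they were Col4a3bp (0.0207) and Slc24a2 (0.0275), and for Gabbr1 Dpyd (0.0193) and Fgfr1op2 (0.0208).

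The tissue also held markers of other cell types. Of 16 markers of excitatory hippocampal neurons 3 were higher and 4 lower in DBA/2, and they summed to 6004 to 6477 CPM in DBA/2 and 5760 to 6227 CPM in C57BL/6. C1ql2, Tdo2 and Ociad2 fell by 1.24, 0.82 and 0.56 on the log2 scale. Higher calls were 1 without DBA/2 replicate 1, 5 without DBA/2 replicate 2 and 0 without the C57BL/6 libraries with Xist counts, where 3 were lower. Of 10 myelin markers edgeR called 2 lower and limma-voom 9, and none was higher in either. With edgeR 8 were lower without DBA/2 replicate 3, 4 without C57BL/6 replicate 1 and 0 without DBA/2 replicate 2, where 5 had an unadjusted p under 0.05. Without the C57BL/6 libraries with Xist counts 1 was lower. Of 11 striatum and pallidum markers 3 were higher and none lower. Without DBA/2 replicate 2 the counts were 1 higher and 3 lower, without C57BL/6 replicate 2 they were 1 and 1, and without C57BL/6 replicate 3 or both libraries with Xist counts they were 1 and 0. Of 10 vascular markers 2 were higher and 1 lower. Without any 1 DBA/2 library or without C57BL/6 replicate 2 the counts were 1 and 1, without C57BL/6 replicate 3 they were 5 and 1, and without both libraries with Xist counts they were 5 and 0. Of 10 choroid plexus markers edgeR called none, none had an unadjusted p under 0.05, limma-voom called 3 and the DESeq2 Wald test 0. With the replicate number as a block in edgeR, 8 had an unadjusted p under 0.05, and none of them was lower. Without DBA/2 replicate 3 or C57BL/6 replicate 1 edgeR called 1 of them higher. The choroid plexus markers summed to 2788, 2005 and 1269 CPM in DBA/2 replicates 1 to 3. In C57BL/6 replicates 1 to 3 they summed to 1549, 994 and 700 CPM. The strains overlapped, and the sums fell from replicate 1 to replicate 3 in both. Ttr, the most abundant of them, had 1835 ± 700 CPM in DBA/2 and 945 ± 396 CPM in C57BL/6 (SD, n = 3 each).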

How the data were processed

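Bulk RNA from hippocampus was sequenced in 3 DBA/2 and 3 C57BL/6 libraries. Groups follow the strain label, and replicate numbers the titles. Per the labels' protocols, TRIzol extracts went into NEBNext Ultra RNA libraries read on an Illumina HiSeq. Trimmomatic 0.30, HISAT2 2.0.1, Cufflinks 2.2.1 and build GRCm38 are named per the submitters' processing notes. GRCm38 is the C57BL/6J genome, and how DBA/2 sequence differences affect the counts was not tested. The sources used here do not give the counter or its annotation.

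Raw counts of 51912 genes were deposited by the authors. They also deposited FPKM values, which followed from these counts, the exonic length in the table and the library total to within 0.005. Another 12 columns match no labelled sample and were not used.

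The main test was edgeR's quasi-likelihood F test (version 4.0.16) with TMM scaling (filterByExpr by strain, robust fit) in R 4.3.3, with Benjamini-Hochberg adjustment over 17517 genes. The script was tested on simulated data. Ratios were tested by exact two-sided permutation (SciPy 1.17.1). Marker and pathway lists are described by counts, with no set test. Alternatives used DESeq2 1.42.0, limma 3.58.1, other scalings and filters, a replicate block and libraries left out. Similar transcripts were searched with BLAST 2.17.0 in GENCODE M21, which shares the build and held 99.5% of the gene IDs. Promoters come from RefSeq (GRCm38.p6). The genes and lists were chosen with earlier results of these data known. Named list genes are up to 4 called members that changed most in size (in a list with no call, the 2 members of highest level) and for each called gene the 2 with the nearest CPM pattern. Of the genes that this rule picks, 2 are not reported here. Slc6a13 had the fewest counts of the 8 genes, and 0 counts in a library would allow up to 3 counts, or 0.150 to 0.219 CPM, by counting error only. Within a strain, chi-square over its degrees of freedom was 3.16 to 3.93 between libraries, so none was counted as a repeat.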

Additional observations from a re-analysis of the deposited data

How the results depend on the processing

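Slc6a11, Gabbr1 and Gabbr2 kept their direction and their side of the threshold under all 16 alternatives. Gad1 stayed uncalled under all of them, but its log2 fold change was only 8.0e-05 without DBA/2 replicate 2, which gives no direction. Of the called genes, Slc32a1 was lost without the C57BL/6 libraries with Xist counts (log2 fold change -0.27), as was Abat (-0.16), which was also lost with limma at pseudocounts of 1 (-0.18) and 0.1 (-0.19) added to FPKM. That setting leaves 1 C57BL/6 library, which is assumed to vary like those of DBA/2. It left 2 of the 8 genes called, against 4 with all libraries, and 2012 of all genes, against 4000. The log2 difference of the ratio of Abat to Gad1 and Gad2 was then -0.15, against -0.21 with all libraries. Leaving out 1 library at a time gave log2 fold changes of -0.22 to 0.00061 for Gad2, which turned in sign without DBA/2 replicate 1 and was called without DBA/2 replicate 2. It gave -0.28 to 0.088 for Slc6a13, which turned in sign without C57BL/6 replicate 1. The causes were not tested. The labels do not say whether the replicate numbers pair the libraries. Deviations from the strain mean correlated at 0.143, -0.106 and 0.001 for replicates 1, 2 and 3. Between different numbers they correlated at -0.142 to 0.135. So few values cannot decide whether the libraries are paired. With the number as a block, 4 of the 8 genes and 3827 of all genes were called, and the log2 fold change of Slc6a11 was -0.58. The block added calls in the lists of choroid plexus (5 higher, 0 without it; Ttr had an edgeR adjusted p of 1.03e-12, against 0.265), thalamus and habenula (13 lower, against 7) and myelin markers (9 lower, against 2). Slc6a13 rests on 70 to 128 counts per library. Alternatives for ratios and lists were chosen after seeing the data.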
